A study of Mus musculus with 70 samples.

Results

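Untreated striatum was compared with untreated cerebral cortex in 28 of the 70 libraries of a mouse brain RNA sequencing series, to describe which genes set the regions apart in control mice. The members were chosen by label alone: 7 libraries each of cortex WT, cortex WTa, striatum WT and striatum WTa, or 14 per tissue. WT denotes untreated wild-type mice, and WTa denotes the wild types labelled for a double-knockout line that lacks Oatp1c1, the product of Slco1c1, beside another protein. For WT and WTa mice, neither age nor sex was stated in the sources used here. The other 42 libraries are cortex and striatum from mice made hypothyroid from before birth with methimazole and perchlorate given to the dams (MMI, wild-type C57BL/6J males), from mice of a double-knockout line without Dio2 (MctDio KO) and from mice of the double-knockout line without Oatp1c1 (MctOatp KO). The design text gives postnatal days 21 to 23 for those mice, and all were used here only to ask whether regional differences measured in controls were also present in mice not used to measure them.

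The cerebral cortex is built mainly from glutamatergic pyramidal neurons, which arise in the pallium and are stacked in layers, with a minority of GABAergic interneurons that migrate in from the subpallium. The striatum arises from the subpallium, and nearly all its neurons are GABAergic spiny projection neurons. Direct-pathway spiny neurons carry the dopamine receptor Drd1 and project to the output nuclei of the basal ganglia, indirect-pathway spiny neurons carry Drd2 and project to the external pallidum, and a small population of large cholinergic interneurons supplies acetylcholine locally. Fibre bundles of the internal capsule run through the striatum, and the lateral ventricle, with its choroid plexus and subventricular zone, lies beside it.

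The number of reads counted in genes ran from 7802957 to 22485839 per control library. Levels are given in CPM, edgeR's normalised read counts scaled to a common library size with TMM factors, and differences as the log2 ratio of striatum to cortex with its standard error, from a model with terms for tissue and control group. A gene is said to be called where the Benjamini-Hochberg adjusted p of edgeR's quasi-likelihood test is under 0.05. Nothing in the labels says outright that the 7 libraries of a group came from 7 mice, and p-values measure the spread between these libraries. Libraries are numbered by their order within a group, and WT titles can end in another number, as in F3str_WT4 for striatum WT 3. The labelled tissues carried their defining markers: Slc17a7, the vesicular glutamate transporter of cortical pyramidal neurons, was highest in cortex, and Drd1, Drd2 and Ppp1r1b were highest in striatum, in all 28 libraries without overlap. Most values that stood apart from the rest of a group came from striatum WT 3, with 7 named genes, and from striatum WTa 1, cortex WT 1 and cortex WT 4, with 5 each, and without these 4 libraries 5863 genes were called higher and 5493 lower. In bulk tissue, fewer cells of a type and less RNA per cell cannot be told apart, and this holds for each result below.

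The tissues differed widely. Of 16096 genes tested, 11415 (70.9%) were called, 5865 (36.4%) higher and 5550 (34.5%) lower in striatum, so that a call by itself says little about a gene here. Counts of list or family members called higher or lower below are to be read beside 36.4% and 34.5%. The shares that stand as background for the groups below are smaller when size is asked for. At least 2-fold differences were called for 2275 genes (14.1%), 1218 higher (7.57%) and 1057 lower (6.57%), and at least 4-fold differences for 685 genes (4.26%), 399 higher (2.48%) and 286 lower (1.78%). The 14 libraries of a tissue did not overlap with the 14 of the other in 3741 genes (23.2%), 1750 higher (10.9%) and 1991 lower (12.4%). Among the 4-fold genes, 322 of the 399 higher and 268 of the 286 lower had no overlap. Across all genes tested, the median log2 difference was 0.01.

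**Figure D1:**
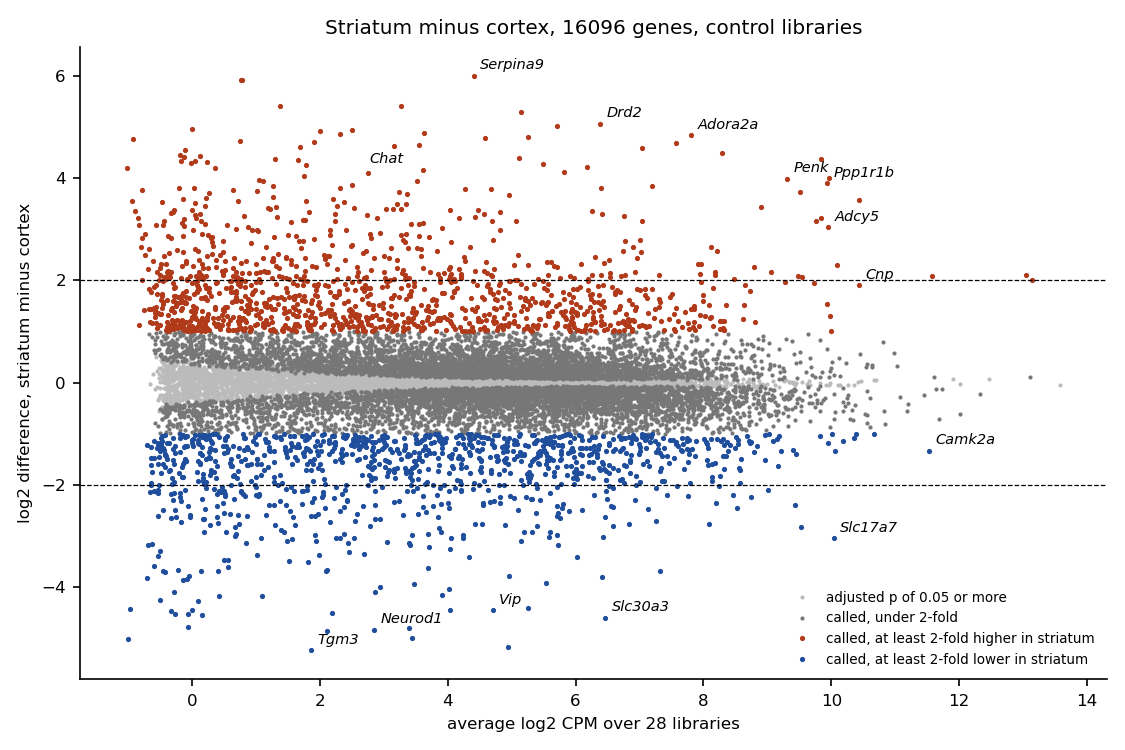
Log2 difference, striatum minus cortex, of each of the 16096 genes tested against its average log2 CPM over the 28 control libraries, with dashed lines at a 4-fold difference in either direction. Differences of 4-fold and more were present on both sides, 399 higher and 286 lower.

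The largest differences belonged to genes with only a few reads in the tissue that had less. Serpina9, a protease inhibitor gene (ENSMUSG00000058260, chromosome 12, 103994743 to 104013755, GRCm38), ranged from 0 to 1.74 CPM (median 0.644) in cortex and from 30.8 to 48.6 CPM (median 41.8) in striatum (6.0 ± 0.18, adjusted p = 1.8e-22). Every striatum library was far above every cortex library. Isl1, a LIM homeodomain factor of direct-pathway and cholinergic neurons (chromosome 13, 116298281 to 116309689), ranged from 0 to 1.29 CPM (median 0.371) in cortex and from 16.1 to 22.8 CPM (median 18.6) in striatum (5.42 ± 0.18). Drd2, the D2 dopamine receptor gene (ENSMUSG00000032259, chromosome 9, 49340627 to 49408177), ranged from 1.84 to 11.1 CPM (median 4.72) in cortex and from 145 to 203 CPM (median 163) in striatum, which is 33.5-fold (5.07 ± 0.20, adjusted p = 2.44e-18). The highest cortex values came from cortex WT 1, WT 7, WTa 5 and WTa 6, from 7.61 to 11.1 CPM, against 1.84 to 5.18 CPM in the other 10 cortex libraries. Without these 4, which were chosen by these values so that the difference had to grow, the Drd2 difference was 51.9-fold (5.70 ± 0.14). Its neighbour Ankk1, a kinase gene, ranged from 0 to 0.824 CPM (median 0.203) in cortex and from 4.23 to 10.4 CPM (median 7.74) in striatum (4.93 ± 0.21). The tissues were separated without overlap for Isl1, Drd2 and Ankk1. Other genes among the 10 largest with no overlap and at least 5 CPM in striatum included Clec12a, a C-type lectin receptor gene (5.41 ± 0.23), Sh3rf2 (5.29 ± 0.18), Cd4, best known as the helper T cell co-receptor (5.02 ± 0.20), Ptpn7, a tyrosine phosphatase gene (4.95 ± 0.21), and Ido1, which starts tryptophan breakdown (4.89 ± 0.17). Cd4 ranged from 0.689 to 9.73 CPM (median 2.45) in cortex and from 86.2 to 131 CPM (median 96.6) in striatum, while Cd3e, which defines T cells, had too few reads in these libraries to be tested.

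In the other direction, Tgm3, a transglutaminase gene, had the largest difference (-5.24 ± 0.22). It ranged from 3.78 to 9.68 CPM (median 6.53) in cortex and from 0 to 0.695 CPM (median 0.155) in striatum. Vip, the neuropeptide of a class of cortical interneurons (ENSMUSG00000019772, chromosome 10, 5639218 to 5647617), ranged from 42.3 to 55.7 CPM (median 50) in cortex and from 0.871 to 3.73 CPM (median 2.11) in striatum (-4.45 ± 0.10, adjusted p = 2.68e-27). Every cortex library held far more Vip than any striatum library. Slc30a3, which loads zinc into glutamatergic vesicles, ranged from 151 to 194 CPM (median 169) in cortex and from 3.7 to 18.4 CPM (median 5.38) in striatum (-4.60 ± 0.15). Grm2, a presynaptic glutamate receptor gene, ranged from 62.7 to 88.7 CPM (median 69.1) in cortex and from 2.02 to 7.82 CPM (median 3.03) in striatum (-4.41 ± 0.12). Both were separated without overlap. The remaining 6 were Fam19a1, a secreted protein gene (-5.17 ± 0.14), Adcyap1, the neuropeptide PACAP (-5.01 ± 0.15), Adam33, a metalloprotease gene (-4.85 ± 0.20), Neurod1, a bHLH factor of glutamatergic neurons (-4.83 ± 0.13), Tmem215 (-4.81 ± 0.18) and Hkdc1, a hexokinase relative (-4.45 ± 0.13). Members of the lists below other than the most strongly separated ones and the like-level ones were chosen for naming after their values were seen.

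The promoters of the dopamine receptor genes that mark the striatal pathways and of a pair of genes far higher in cortex are shown because these genes had opposite regional differences, each at least 4-fold. They are RefSeq sequences of the build GRCm38.p6, from 250 bases before to 50 bases after the start of transcription, on the gene's own strand, with 2 motifs in capitals. The first motif is GGGCGG, which binds factors of the Sp family. The second is TATAAA, the core of the element from which many tissue-specific genes start. Both were read on both strands, and neighbouring matches may share bases. Drd1 has 2 starts in the table, and the first is shown (chr13:54055609-54055908, minus strand), with the others at chr9:49340153-49340452 for Drd2, chr10:5638968-5639267 for Vip and chr7:45163671-45163970 for Slc17a7, all on the plus strand.
Drd1: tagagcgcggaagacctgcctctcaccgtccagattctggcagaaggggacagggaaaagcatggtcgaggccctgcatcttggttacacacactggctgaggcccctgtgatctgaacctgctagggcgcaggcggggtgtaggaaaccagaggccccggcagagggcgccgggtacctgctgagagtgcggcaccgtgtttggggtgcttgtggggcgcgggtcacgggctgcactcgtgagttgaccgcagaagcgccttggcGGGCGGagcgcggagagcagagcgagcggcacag
Drd2: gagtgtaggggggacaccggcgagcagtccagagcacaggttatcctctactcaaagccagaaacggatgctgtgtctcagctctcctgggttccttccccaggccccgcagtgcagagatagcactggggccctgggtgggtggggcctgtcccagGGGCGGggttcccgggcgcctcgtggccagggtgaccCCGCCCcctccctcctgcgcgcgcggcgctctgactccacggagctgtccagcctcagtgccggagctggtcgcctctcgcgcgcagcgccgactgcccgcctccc
Vip: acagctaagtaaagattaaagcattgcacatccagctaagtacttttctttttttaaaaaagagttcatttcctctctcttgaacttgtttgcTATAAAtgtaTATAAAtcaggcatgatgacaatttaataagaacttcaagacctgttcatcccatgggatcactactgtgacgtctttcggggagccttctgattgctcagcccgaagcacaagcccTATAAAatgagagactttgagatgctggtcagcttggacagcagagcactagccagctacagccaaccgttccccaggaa
Slc17a7: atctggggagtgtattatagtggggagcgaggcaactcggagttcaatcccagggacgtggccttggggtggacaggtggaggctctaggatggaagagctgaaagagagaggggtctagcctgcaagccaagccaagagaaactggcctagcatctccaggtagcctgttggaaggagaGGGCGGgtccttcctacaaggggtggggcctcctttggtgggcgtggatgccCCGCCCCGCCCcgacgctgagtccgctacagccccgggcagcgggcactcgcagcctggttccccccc
The Drd1 window held 1 GGGCGG match, the Drd2 window 2 and the Slc17a7 window 3, and the Vip window held none of these and 3 TATAAA matches. Promoters were matched by symbol for 11616 of the 16096 genes tested. GGGCGG was present in 67% of these, in 49% of the 288 with at least 4-fold higher and in 50.2% of the 209 with at least 4-fold lower expression in striatum. TATAAA was present in 8.86%, 12.8% and 17.2% in the same order, and a further motif looked for, TGACGTCA, in 3.5%, 2.08% and 1.44%. A gene was counted where any of its starts held the motif, so genes with more starts had more windows. The genes had 14885, 366 and 290 starts in the same order. Genes of both sets with large differences thus held GGGCGG less often and TATAAA more often than all tested genes with a promoter. This is a description without a test, since the motifs were chosen after the data were seen, and the part of the number of starts was not tested.

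Genes shared by both kinds of spiny projection neuron were higher in striatum throughout. All 29 tested members were called higher, against 36.4% of all genes, 25 of them by at least 2-fold and 27 without overlap, and the median was 2.80 against 0.01 over all genes. Their summed level ranged from 4156 to 5436 CPM in cortex and from 20524 to 27980.0 CPM in striatum. Ppp1r1b, which encodes the dopamine-regulated phosphatase inhibitor DARPP-32 (ENSMUSG00000061718, chromosome 11, 98348404 to 98357796), ranged from 81.7 to 203 CPM (median 105) in cortex and from 1469.5 to 2246 CPM (median 1838) in striatum (3.91 ± 0.13, adjusted p = 4.89e-20). Pde10a, a phosphodiesterase that breaks down cyclic nucleotides in spiny neurons, ranged from 63 to 210.2 CPM (median 122) in cortex and from 1528 to 2462 CPM (median 1849) in striatum (4.01 ± 0.17). Neither gene had any overlap between tissues. Within cortex, Ppp1r1b was high in the 4 libraries highest for Drd2, as given below. Adcy5, the main striatal adenylyl cyclase, ranged from 170.2 to 275 CPM (median 210.0) in cortex and from 1474 to 2122 CPM (median 1744) in striatum (3.03 ± 0.07). Gng7, a G protein subunit, ranged from 142 to 248 CPM (median 166) in cortex and from 1343 to 1962 CPM (median 1673) in striatum (3.22 ± 0.08), and Gnal, the G protein that links D1 dopamine and adenosine receptors to the cyclase, ranged from 153 to 235 CPM (median 187) in cortex and from 762 to 998 CPM (median 849) in striatum (2.17 ± 0.05). The G protein subunits and the cyclase were again separated without overlap. Rgs9, which turns off G protein signalling (4.49 ± 0.19), Syndig1l (4.69 ± 0.20) and Scn4b, a sodium channel subunit gene (4.37 ± 0.16), had larger differences than these. The smallest differences in the list were those of Rgs4 (0.48 ± 0.07) and Prkcb (0.21 ± 0.05), both called and both overlapping between tissues.

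**Figure D2:**
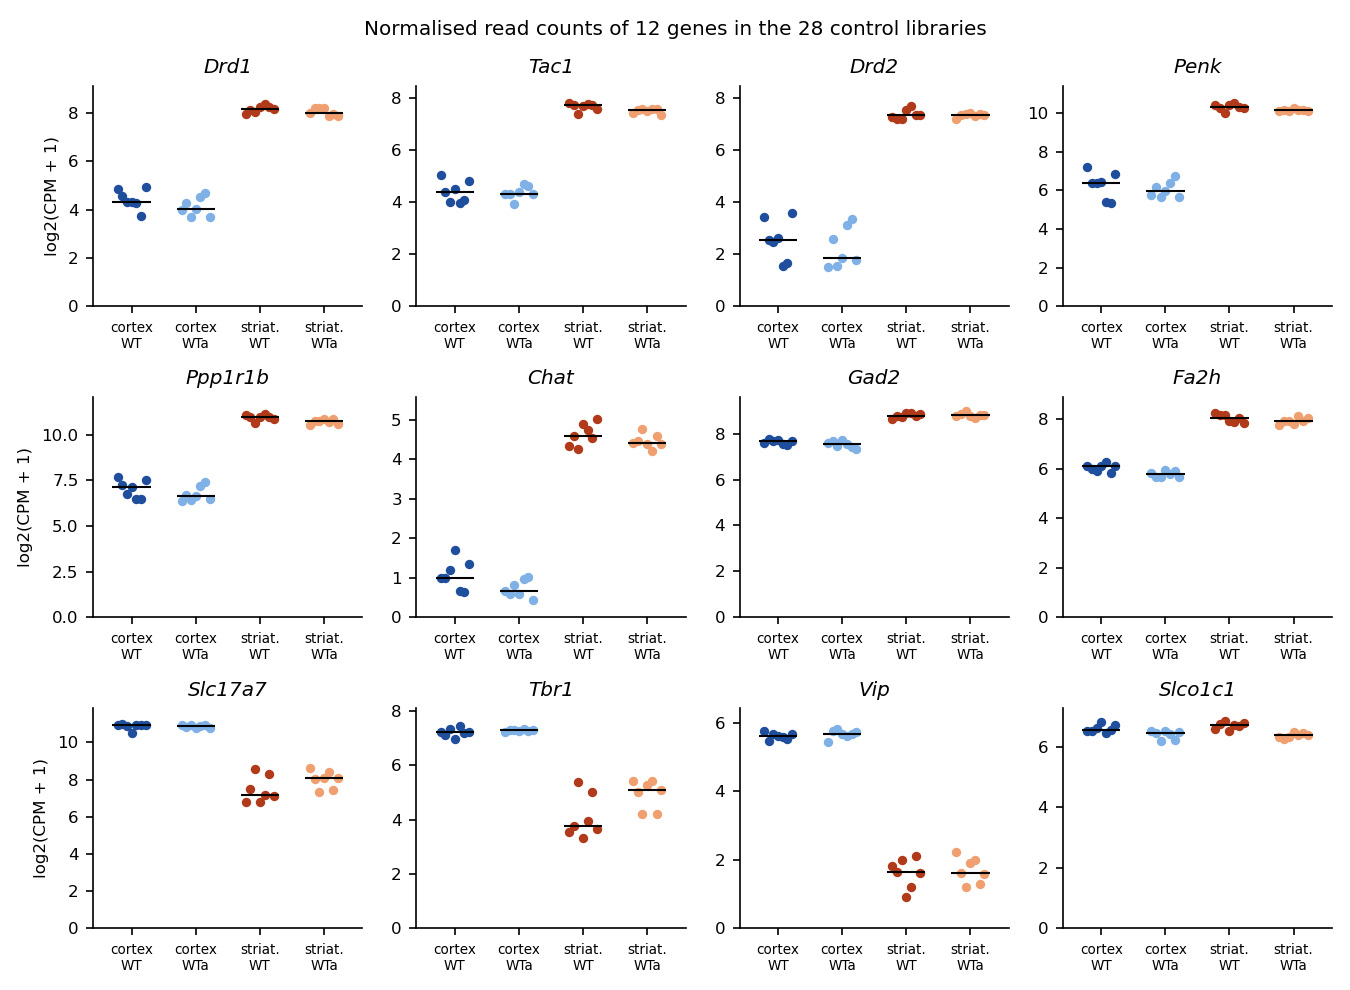
Level of 12 genes, as log2(CPM + 1), in each of the 28 control libraries. Each column holds the 7 libraries of a group of tissue and control line, and bars mark medians. Drd1, Tac1, Drd2, Penk, Ppp1r1b, Chat, Gad2 and Fa2h were higher in every striatum library than in any cortex library, Slc17a7, Tbr1 and Vip were lower, and Slco1c1 overlapped.

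Both projection pathways contributed. Of 11 direct-pathway genes tested, 9 were called higher and 2 lower, with a median of 1.72. Of 10 indirect-pathway genes 7 were called higher and 1 lower, with a median of 3.17. The shares of all genes were 36.4% called higher and 34.5% lower. Drd1 (ENSMUSG00000021478, chromosome 13, 54051183 to 54055705), whose promoter is shown above, ranged from 11.8 to 29.7 CPM (median 18.4) in cortex and from 229 to 327 CPM (median 281) in striatum (3.85 ± 0.11, 14.4-fold, adjusted p = 1.1e-21). Tac1, the substance P precursor of direct-pathway neurons, ranged from 14.4 to 32.6 CPM (median 19.6) in cortex and from 164 to 223 CPM (median 194) in striatum (3.25 ± 0.10). No striatum library was as low as any cortex library for either gene. Pdyn, which encodes prodynorphin, ranged from 25.4 to 45.5 CPM (median 35.4) in cortex and from 98.9 to 152 CPM (median 111) in striatum (1.72 ± 0.06), and Chrm4, the M4 muscarinic receptor of direct-pathway neurons, ranged from 29.6 to 53.5 CPM (median 35.9) in cortex and from 113 to 161 CPM (median 122.8) in striatum (1.71 ± 0.06). Cortex thus held a larger share of the striatal level of Pdyn and Chrm4, at 31.8% of the striatal median for Pdyn, than of Drd1, at 6.57%. The Drd1 share was taken over all cortex libraries, among them the 4 highest for Drd2, in which Drd1 was also high. Slc35d3, a solute carrier gene, was nearly confined to striatum by level, ranging from 0.802 to 4.86 CPM (median 1.5) in cortex and from 38 to 61.6 CPM (median 44.1) in striatum (4.78 ± 0.13). Of the 2 members called lower, 1 was lower by at least 2-fold and without overlap, and Eya1 was lower by less (-0.49 ± 0.07).

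Among indirect-pathway genes, Adora2a, the adenosine receptor of these neurons, ranged from 5.57 to 35.9 CPM (median 14.3) in cortex and from 362 to 534 CPM (median 419.6) in striatum (4.84 ± 0.23, adjusted p = 1.47e-16). The cortex libraries highest for Drd2 were also highest for Adora2a, from 22.05 to 35.9 CPM against 5.57 to 17.8 CPM in the other 10, and without them the Adora2a difference was 5.42 ± 0.17. Penk, which encodes proenkephalin, ranged from 38.9 to 144 CPM (median 76.1) in cortex and from 1027 to 1429 CPM (median 1172) in striatum (3.99 ± 0.16). Gpr6, an orphan receptor gene, ranged from 2.1 to 8.14 CPM (median 4.0) in cortex and from 73.8 to 107 CPM (median 85.3) in striatum (4.28 ± 0.13). In the same 4 libraries Penk lay from 83.0 to 143.6 CPM, against 38.9 to 86.2 CPM in the other 10. Genes outside this pathway were high there too, with slight overlap. Drd1 lay from 21.98 to 29.73 CPM, against 11.83 to 22.77 CPM in the other 10. Ppp1r1b lay from 142.9 to 202.8 CPM, against 81.7 to 147.9 CPM in the other 10. Without these 4, the difference was 4.07 ± 0.09 for Drd1 and 4.17 ± 0.09 for Ppp1r1b. Slc17a7 lay from 1863 to 1979 CPM in them, within the range of the others, and the cause was not tested. Adora2a, Penk and Gpr6 had no overlap between tissues. Sp9, a zinc finger factor needed for indirect-pathway neurons (2.38 ± 0.07), and Upb1, an enzyme of pyrimidine breakdown (3.96 ± 0.18), were also higher. Oprd1, the delta opioid receptor, was called with a small difference (0.47 ± 0.11). Ptprm (0.07 ± 0.05) and the kainate receptor gene Grik3 (-0.07 ± 0.06) were not called, and Nell1 was lower (-0.87 ± 0.06).

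Dopamine signalling differed at the receptor and its effectors rather than in every component. Of 23 tested genes of dopamine receptors, effectors and metabolism, 16 were called higher and 5 lower, and 9 of those higher belong to the spiny neuron lists above or encode Drd1 and Drd2. Drd3, Drd4 and the dopamine transporter gene Slc6a3 had too few reads to be tested, and the last is a marker of midbrain dopamine neurons. Drd5 ranged from 0.946 to 2.24 CPM (median 1.46) in cortex and from 1.24 to 3.17 CPM (median 2.35) in striatum (0.68 ± 0.14), with overlapping tissues. The kinase subunit genes went in opposite directions. Prkar2b ranged from 77.6 to 96 CPM (median 85.5) in cortex and from 154 to 217 CPM (median 179.9) in striatum (1.10 ± 0.04) and Prkar1b ranged from 810.2 to 932 CPM (median 869) in cortex and from 251 to 341 CPM (median 269.6) in striatum (-1.64 ± 0.04). These regulatory subunits of protein kinase A did not overlap between tissues, whereas the catalytic subunit genes Prkaca (-0.29 ± 0.03) and Prkacb (-0.12 ± 0.04) were called lower by small amounts. Maoa, an enzyme of dopamine breakdown, was at a like level (-0.08 ± 0.05, not called).

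The cyclic nucleotide enzymes were called in both directions within their families, as were all genes, with 36.4% called higher and 34.5% lower. Of 10 adenylyl cyclase genes, Adcy5 and Adcy3 (0.49 ± 0.06) were called higher and 7 were called lower, with a family median of -0.68. Adcy1, a calmodulin-stimulated cyclase, ranged from 698 to 1145 CPM (median 986) in cortex and from 212 to 469 CPM (median 419.9) in striatum (-1.32 ± 0.10), and Adcy2 ranged from 149 to 186 CPM (median 169.8) in cortex and from 47.8 to 74.7 CPM (median 64.2) in striatum (-1.42 ± 0.04). Both were higher in every cortex library than in any striatum library. Of 18 phosphodiesterase genes 10 were called higher and 7 lower, with a median of 0.27. Beside Pde10a, those with the strongest separation were Pde1b (3.15 ± 0.07) and Pde7b (2.80 ± 0.06), while Pde1a, a calmodulin-dependent relative of Pde1b, ranged from 165 to 225 CPM (median 201) in cortex and from 25.2 to 66.6 CPM (median 42.3) in striatum (-2.30 ± 0.10). Pde1a and Pde1b thus had opposite differences, both without overlap. Of 17 regulators of G protein signalling 9 were called higher, including Rgs8 (1.46 ± 0.05) and Rgs2 (1.18 ± 0.05), and 6 lower, including Rgs6 (-1.67 ± 0.09).

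Neuropeptide genes split by precursor. Of 19 opioid, tachykinin and cannabinoid genes, 9 were called higher and 9 lower, against 36.4% and 34.5% of all genes. Beside Penk, Tac1 and Pdyn, the substance P receptor gene Tacr1 ranged from 2.27 to 5.87 CPM (median 4.12) in cortex and from 32.3 to 46.4 CPM (median 38.8) in striatum (3.24 ± 0.09), and the kappa opioid receptor gene Oprk1 ranged from 7.83 to 17.6 CPM (median 13.9) in cortex and from 34.1 to 54.7 CPM (median 44.4) in striatum (1.65 ± 0.09). The nociceptin precursor gene Pnoc was lower (-1.45 ± 0.10), as was the gene of its receptor, Oprl1 (-0.91 ± 0.04). The cannabinoid receptor gene Cnr1 was higher, ranging from 157 to 224 CPM (median 182) in cortex and from 368 to 602 CPM (median 403) in striatum (1.20 ± 0.07). The enzymes that break down its ligands were lower, Faah by the larger amount (-1.60 ± 0.06) and Mgll by less (-0.69 ± 0.03). Tac2, which encodes neurokinin B, was the lowest of the group (-2.73 ± 0.13), with from 5.87 to 9.31 CPM (median 7.58) in cortex and from 0.508 to 2.34 CPM (median 1.01) in striatum.

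The genes of striatal cholinergic interneurons were higher in striatum as a group: 12 of 12 tested were called higher, against 36.4% of all genes. Of these, 10 were at least 2-fold higher (7.57% of all genes) and 10 had no overlap (10.9%), with a median of 3.56. Isl1 had the largest difference in this list and is also in the direct-pathway and subpallial lists, so these lists share members. Chat, which makes acetylcholine, ranged from 0.344 to 2.29 CPM (median 0.876) in cortex and from 17.5 to 31.8 CPM (median 21.8) in striatum (4.66 ± 0.14, adjusted p = 1.22e-24). Slc5a7, the choline transporter, ranged from 1.49 to 4.48 CPM (median 2.69) in cortex and from 28.6 to 48.1 CPM (median 35.6) in striatum (3.79 ± 0.12), and the LIM homeodomain gene Lhx8 ranged from 0 to 1.39 CPM (median 0.222) in cortex and from 5.58 to 8.95 CPM (median 7.43) in striatum (4.71 ± 0.23). Cortex libraries held few reads of any of these. Ache, which breaks acetylcholine down and is made by many neurons, had the smallest difference in the list, ranging from 49.9 to 76.3 CPM (median 64) in cortex and from 76.4 to 98.7 CPM (median 85.9) in striatum (0.45 ± 0.04). Acetylcholine receptor genes did not follow: of 13, Chrm4 alone was called higher and 9 were called lower, including Chrm3 (-1.68 ± 0.11), Chrnb3 (-2.96 ± 0.20) and Chrna4 (-0.74 ± 0.06). Several cholinergic genes also mark the basal forebrain below the striatum. The list of septal, pallidal and basal forebrain markers had 10 of 15 called higher and 4 lower, against 36.4% and 34.5% of all genes. Lhx8 and Nkx2-1 (4.26 ± 0.18) were among its largest differences, and the lowest member was at -1.69. Gbx1, a basal forebrain factor in no other list, ranged from 0 to 1.19 CPM (median 0.139) in cortex and from 1.45 to 4.84 CPM (median 2.72) in striatum (3.77 ± 0.30). The part of neighbouring tissue in these results was not tested.

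General GABAergic genes were higher in striatum, but by less than spiny neuron genes, and most interneuron genes were lower. The GABA-synthesising enzyme gene Gad2 ranged from 158 to 214 CPM (median 191) in cortex and from 399.9 to 499.9 CPM (median 445) in striatum (1.21 ± 0.04), and Gad1 ranged from 268 to 385 CPM (median 320.0) in cortex and from 463 to 621 CPM (median 541) in striatum (0.76 ± 0.04). Slc32a1, the vesicular GABA transporter, ranged from 71.5 to 102 CPM (median 80) in cortex and from 186 to 270.2 CPM (median 214) in striatum (1.44 ± 0.04). None of these 3 overlapped between tissues. Of the 23 tested genes of this list 6 were called higher and 16 lower, with a median of -0.49. The interneuron classes differed in size of the change: Vip was lower by 21.9-fold as above, and the Vip-class genes Htr3a (-2.10 ± 0.11) and Crh (-2.26 ± 0.16) and the calretinin gene Calb2 (-2.40 ± 0.19) were lower by more than 4-fold. Cck ranged from 233 to 314 CPM (median 259) in cortex and from 20.4 to 69.3 CPM (median 40.2) in striatum (-2.71 ± 0.14). The somatostatin gene Sst ranged from 181 to 255 CPM (median 208) in cortex and from 137 to 169 CPM (median 148) in striatum (-0.48 ± 0.04), and Npy ranged from 93.7 to 119 CPM (median 107) in cortex and from 59.9 to 85.1 CPM (median 70.1) in striatum (-0.59 ± 0.05). Pvalb, of fast-spiking interneurons, ranged from 44.2 to 67.4 CPM (median 57) in cortex and from 22.8 to 62.3 CPM (median 44.8) in striatum (-0.34 ± 0.12), with broad overlap. Sst, Npy and Pvalb thus were closest between the tissues among these peptides and binding proteins. Pthlh (1.20 ± 0.09), Chodl (0.84 ± 0.14) and Nos1 (0.53 ± 0.08) were higher in striatum, each with overlapping tissues.

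Transcription factors of the embryonic subpallium and pallium separated the regions in these tissues. Of 26 subpallial factors tested 23 were called higher and 2 lower, with a median of 2.01. Six3, a homeobox factor of spiny neuron development, ranged from 0.539 to 4.68 CPM (median 3.1) in cortex and from 64.6 to 92.4 CPM (median 70.6) in striatum (4.81 ± 0.17). Rarb, the retinoic acid receptor beta of striatum, ranged from 8.05 to 15.8 CPM (median 10.9) in cortex and from 129 to 197 CPM (median 152) in striatum (3.81 ± 0.09, adjusted p = 6.51e-25). Neither overlapped. Meis2 ranged from 62.5 to 121 CPM (median 94.2) in cortex and from 347 to 469.7 CPM (median 401) in striatum (2.12 ± 0.07), and Foxp1 ranged from 99.1 to 143 CPM (median 120.3) in cortex and from 294 to 442 CPM (median 326) in striatum (1.5 ± 0.05). Zfp503 (3.03 ± 0.08), Dlx6 (2.65 ± 0.08), Ebf1 (2.64 ± 0.09) and Foxp2 (2.36 ± 0.06) were likewise higher without overlap. Reads were unstranded, so the counts of Dlx6, Rarb and Ebf1 are uncertain where genes on the opposite strand overlap them. The exceptions were Dlx1 (-0.36 ± 0.08) and Lhx6 (-0.37 ± 0.05), which cortical interneurons also keep and which were called lower, and Sp8, which was not called (0.46 ± 0.25). Within the Dlx genes the differences thus ran from -0.36 for Dlx1 through 1.07 for Dlx2 and 1.91 for Dlx5 to 2.65 for Dlx6.

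Of 29 pallial factors tested 24 were called lower and 3 higher, with a median of -1.33. Tbr1, a T-box factor of early-born pyramidal neurons (ENSMUSG00000035033, chromosome 2, 61802930 to 61814114), ranged from 124 to 173 CPM (median 153) in cortex and from 9.07 to 41.6 CPM (median 24.5) in striatum (-2.62 ± 0.19, adjusted p = 1.71e-12). Bhlhe22 ranged from 42.4 to 68.1 CPM (median 58.8) in cortex and from 2.73 to 6.51 CPM (median 4.29) in striatum (-3.78 ± 0.08). Neither overlapped, and striatum libraries varied more in relative terms than cortex libraries, from 9.07 to 41.6 CPM for Tbr1. Neurod6 (-2.92 ± 0.15), Neurod2 (-2.93 ± 0.17), Emx1 (-3.22 ± 0.15), Fezf2 (-3.04 ± 0.12), Mef2c (-2.10 ± 0.07) and Satb1 (-2.0 ± 0.08) were lower as well. Pou3f1 (1.36 ± 0.07), Tle4 (0.67 ± 0.04) and Pou3f3 (0.30 ± 0.03) were the members called higher, and Cux1 was at a like level (-0.06 ± 0.04, not called) although its paralog Cux2 was not (-2.07 ± 0.06).

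Genes of cortical excitatory neurons were lower in striatum in 20 of 25 tests and higher in 4, with a median of -1.55. Slc17a7 (ENSMUSG00000070570, chromosome 7, 45163949 to 45176142) ranged from 1447 to 2010.0 CPM (median 1940.3) in cortex and from 108 to 389.8 CPM (median 218) in striatum (-3.04 ± 0.18, adjusted p = 2.22e-14), and its striatal median was 11.2% of the cortical median. Camk2a, a calcium-dependent kinase of forebrain neurons, ranged from 3528 to 4466 CPM (median 4284) in cortex and from 1308 to 1823 CPM (median 1730.3) in striatum (-1.33 ± 0.04), and the vesicle gene Sv2b ranged from 439 to 646 CPM (median 572) in cortex and from 148 to 215 CPM (median 178) in striatum (-1.67 ± 0.05). Slc17a7 therefore had a far larger difference than Camk2a, which spiny neurons also make. Nrgn, the postsynaptic calmodulin-binding protein neurogranin, ranged from 1613 to 1992 CPM (median 1854) in cortex and from 1022 to 1443 CPM (median 1126) in striatum (-0.64 ± 0.05). Stx1a, a syntaxin of transmitter release, was lower (-2.76 ± 0.09), as were the Nogo receptor genes Rtn4r (-3.18 ± 0.15) and Rtn4rl2 (-3.04 ± 0.17). The 4 called higher were Cdh13, Baiap2, Arpp19 and Ptk2b, with differences from 0.28 to 0.96.

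Layer markers were called in both directions, as were all genes, with 36.4% called higher and 34.5% lower. Of 16 genes of layers 2/3 and 4, 12 were called lower and 1 higher (median -0.95), of 14 genes of layer 5, 9 lower and 5 higher (median -0.66), and of 17 genes of layer 6 and the subplate, 7 lower and 8 higher (median 0.09). Rasgrf2, of upper layers, ranged from 167 to 221 CPM (median 198) in cortex and from 20.3 to 37.8 CPM (median 28.2) in striatum (-2.76 ± 0.07), and Rorb, of layer 4, ranged from 41.9 to 73.6 CPM (median 57.5) in cortex and from 12.5 to 25.5 CPM (median 17.6) in striatum (-1.74 ± 0.09). Both were separated without overlap. Among deep-layer markers, Bcl11b, the gene of CTIP2, ranged from 56.2 to 98.1 CPM (median 81) in cortex and from 329 to 540.2 CPM (median 388) in striatum (2.33 ± 0.08), and the synaptotagmin gene Syt6 ranged from 20 to 38.1 CPM (median 29.9) in cortex and from 126 to 216 CPM (median 148) in striatum (2.39 ± 0.09). These were higher in striatum, where spiny neurons use Bcl11b, whereas the layer 6 genes Ntsr1 (-1.91 ± 0.11) and Rprm (-1.79 ± 0.10) were lower. Nr4a2, of the subplate and claustrum, spanned the widest relative range in striatum among the layer 6 genes called lower, ranging from 47.2 to 82.5 CPM (median 63.2) in cortex and from 5.41 to 62.3 CPM (median 26.3) in striatum (-1.09 ± 0.25).

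**Figure D3:**
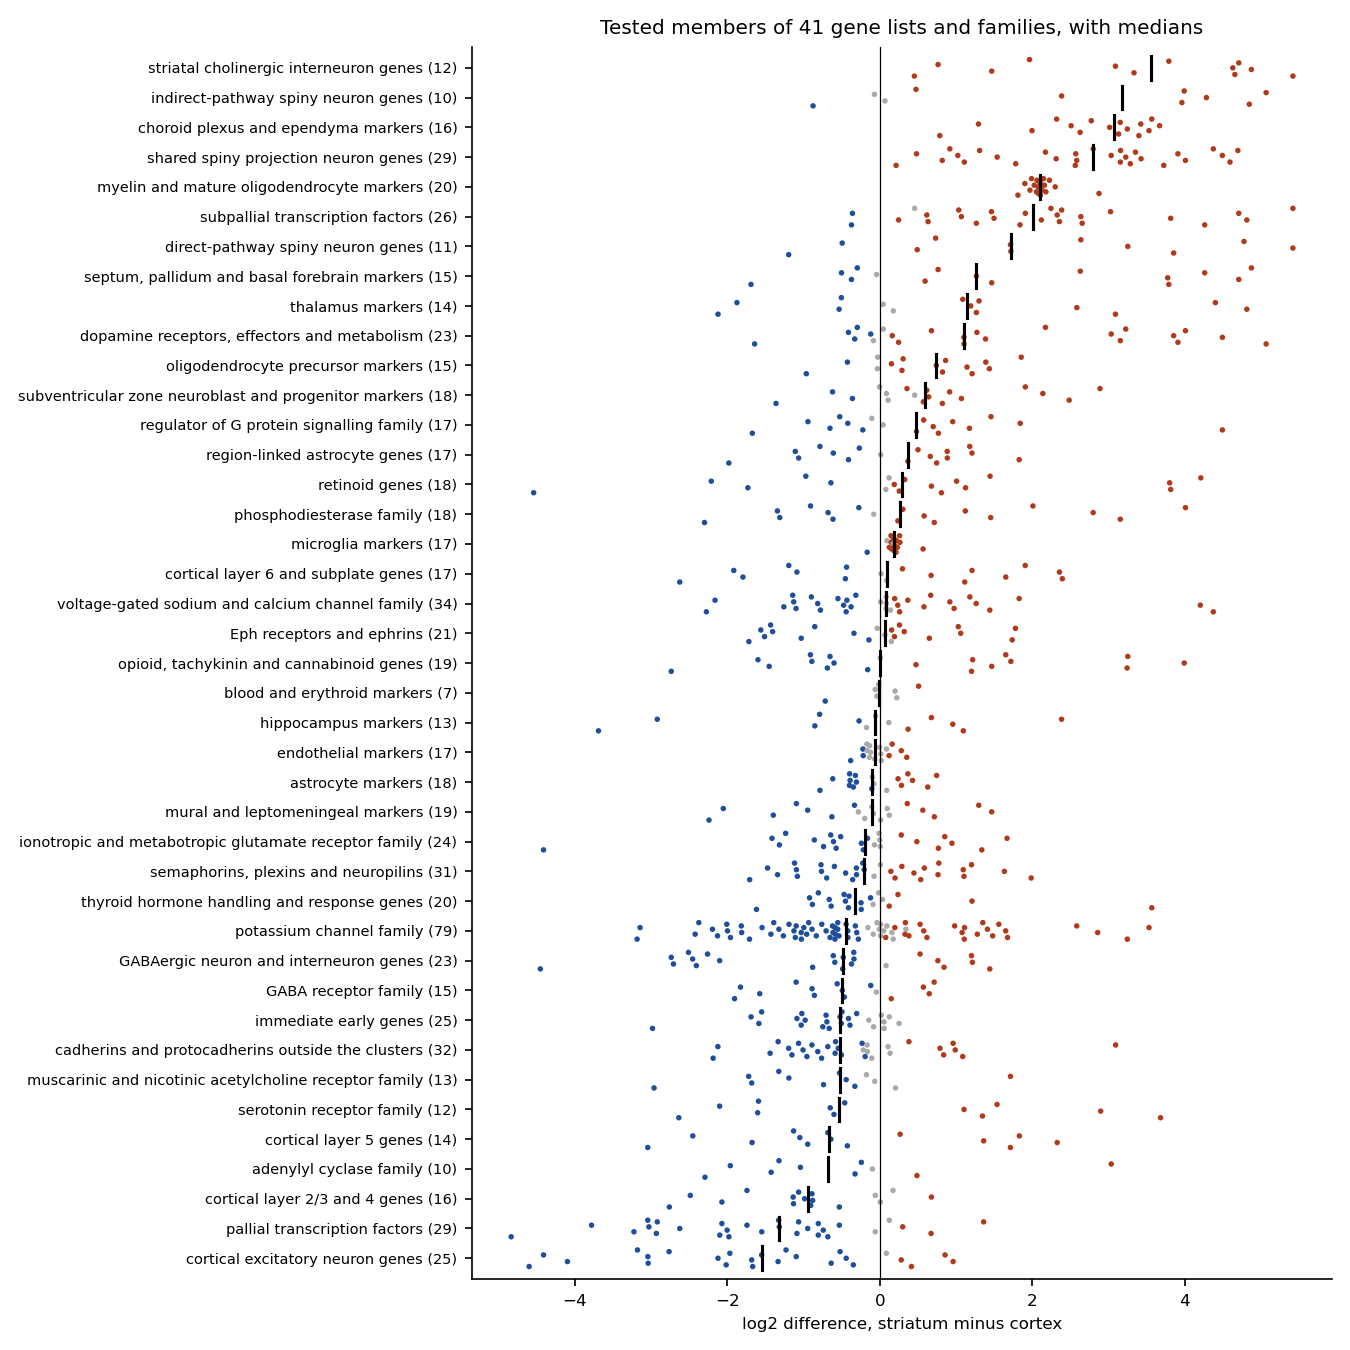
Log2 difference, striatum minus cortex, of every tested member of 41 gene lists and families. Red points were called higher in striatum, blue points were called lower, grey points were not called, and black bars mark list medians. Spiny neuron, cholinergic, myelin and choroid plexus lists lay above 0, with medians of 2.80, 3.56, 2.10 and 3.07, and pallial factor and excitatory neuron lists below 0.

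Ion channel and receptor families held genes called in both directions, as did all genes tested, with 36.4% called higher and 34.5% lower. Of 79 potassium channel genes tested 23 were called higher and 45 lower, with a median of -0.44. Kcnab1, an auxiliary subunit, ranged from 66.5 to 106 CPM (median 80.3) in cortex and from 435 to 621 CPM (median 494) in striatum (2.58 ± 0.06). Kcnk2, a leak channel, ranged from 56.6 to 78.7 CPM (median 67.2) in cortex and from 153 to 203 CPM (median 183) in striatum (1.41 ± 0.04), and Kcnj2, an inward rectifier, ranged from 16.8 to 33.5 CPM (median 20.2) in cortex and from 44.5 to 77.2 CPM (median 67) in striatum (1.56 ± 0.11). All 3 were higher without overlap, as was Kcna4 (1.65 ± 0.06). The G protein-gated inward rectifiers were lower: Kcnj3 (-2.19 ± 0.09), Kcnj6 (-3.18 ± 0.15) and Kcnj9, which ranged from 136 to 203 CPM (median 175) in cortex and from 29.8 to 59.2 CPM (median 44.4) in striatum (-1.96 ± 0.07). The fast-spiking channel genes Kcnc1 (-0.76 ± 0.06), Kcnc2 (-2.13 ± 0.13) and Kcnc4 (-2.37 ± 0.07) were also lower. Of 34 sodium and calcium channel genes 14 were called higher and 15 lower. Cacng4 (1.83 ± 0.05) and Cacna2d3 (1.44 ± 0.05) were higher, and the T-type channel gene Cacna1g was lower, ranging from 131 to 174 CPM (median 147) in cortex and from 17.1 to 46.6 CPM (median 30.2) in striatum (-2.27 ± 0.09), while Cacna1h, another T-type channel, was higher (1.18 ± 0.05).

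Of 24 glutamate receptor genes 7 were called higher and 13 lower (median -0.19), against 36.4% and 34.5% of all genes. Grm4 ranged from 23 to 36 CPM (median 29.7) in cortex and from 78.9 to 129.8 CPM (median 91.9) in striatum (1.67 ± 0.06) and Grik2 ranged from 53.5 to 70.6 CPM (median 62.6) in cortex and from 141 to 170.2 CPM (median 157) in striatum (1.34 ± 0.04), both higher without overlap. Of the NMDA receptor genes, Grin1 differed little (-0.16 ± 0.03) and Grin3a was lower (-1.32 ± 0.05). Of 15 GABA receptor genes 4 were called higher and 10 lower (median -0.49). Gabra3 (-1.90 ± 0.06) and the metabotropic subunit gene Gabbr2 (-1.83 ± 0.07) were lower, and Gabra4 (0.65 ± 0.04) and Gabrd (0.71 ± 0.04), which form tonic receptors, were higher. Gabra3 ranged from 118 to 158 CPM (median 143) in cortex and from 27.6 to 52.2 CPM (median 39.3) in striatum, without overlap. Of 12 serotonin receptor genes 5 were called higher and 7 lower (median -0.53). Htr1d ranged from 0.767 to 2.57 CPM (median 1.38) in cortex and from 14.3 to 25.1 CPM (median 18.6) in striatum (3.68 ± 0.10), and Htr1a ranged from 19.8 to 29.7 CPM (median 23.7) in cortex and from 1.94 to 7.47 CPM (median 4.11) in striatum (-2.63 ± 0.10). These close relatives therefore had opposite differences, neither with overlap. Htr1b (2.90 ± 0.15) and Htr2c (1.35 ± 0.13) were higher, and Htr5a (-1.59 ± 0.07) and Htr7 (-1.60 ± 0.11) lower.

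Among axon guidance and adhesion genes, calls went both ways, as they did over all genes, with 36.4% called higher and 34.5% lower. Of 21 Eph receptor and ephrin genes 9 were called higher and 9 lower, of 31 semaphorins, plexins and neuropilins 13 higher and 16 lower, and of 32 cadherins and protocadherins outside the clusters 7 higher and 19 lower. Efnb3, an ephrin, ranged from 68.3 to 108 CPM (median 83.4) in cortex and from 229 to 316 CPM (median 283) in striatum (1.74 ± 0.05), and Ephb1 ranged from 59.5 to 68.8 CPM (median 64.9) in cortex and from 119.7 to 141 CPM (median 129) in striatum (1.03 ± 0.03), both higher without overlap. Ephb3 (-1.72 ± 0.07) and Epha5 (-1.56 ± 0.06) were lower. Plxna1 (-1.71 ± 0.07) was lower and Sema4d (1.10 ± 0.04), which oligodendrocytes also make, was higher. Cdh13 (0.96 ± 0.05) and Cdh8 (1.09 ± 0.07) were higher, and Cdh12 (-2.12 ± 0.10), Pcdh19 (-1.44 ± 0.08) and Pcdh1 (-0.95 ± 0.04) were lower.

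Retinoid genes were called in both directions, as were all genes, with 36.4% called higher and 34.5% lower. Of 18 tested 11 were called higher and 5 lower, with a median of 0.29. Beside Rarb, its partner receptor gene Rxrg ranged from 3.4 to 14.1 CPM (median 6.66) in cortex and from 107 to 233 CPM (median 130.2) in striatum (4.21 ± 0.17), and Crabp1, a retinoic acid binding protein, ranged from 0.12 to 1.59 CPM (median 0.584) in cortex and from 7.51 to 11.4 CPM (median 9.24) in striatum (3.80 ± 0.16). The receptor and binding protein genes were separated without overlap. Cyp26b1, which breaks retinoic acid down, was lower, ranging from 11.4 to 24.6 CPM (median 20.5) in cortex and from 1.62 to 7.99 CPM (median 4.27) in striatum (-2.21 ± 0.14). Of the synthetic enzymes, Aldh1a3 ranged from 0.958 to 2.88 CPM (median 1.75) in cortex and from 0 to 0.22 CPM (median 0.0671) in striatum (-4.54 ± 0.28), whereas Aldh1a1 was at a like level (0.08 ± 0.05, 95% interval -0.02 to 0.18). Rara, the alpha receptor, was lower (-0.97 ± 0.09).

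Thyroid hormone genes are the subject of the series, and in control mice most were somewhat lower in striatum. Of 20 tested 4 were called higher and 13 lower, with a median of -0.32. The largest difference in the list, 3.57, was that of a member called higher with overlapping tissues. The summed level of the list had a median of 4660.4 CPM in cortex and 6051.5 CPM in striatum, also with overlap. Dio2, whose product makes T3 from T4, ranged from 147 to 260.0 CPM (median 213) in cortex and from 86.5 to 149 CPM (median 118) in striatum (-0.81 ± 0.06, adjusted p = 5.37e-15). Dio3, whose product inactivates thyroid hormone, was scarce, ranging from 1.51 to 3.79 CPM (median 2.28) in cortex and from 0.447 to 1.3 CPM (median 0.799) in striatum (-1.62 ± 0.16, adjusted p = 2.56e-11). Dio2 overlapped between tissues at the edges and Dio3 did not. In WT, Dio2 ranged from 147 to 200 CPM in cortex and from 86.5 to 133 CPM in striatum. In WTa, it ranged from 226 to 260 CPM in cortex and from 113 to 149 CPM in striatum. Dio2 thus had no overlap between tissues within either control group. In cortex, Dio2 was higher in every WTa library than in any WT library, and the cause was not tested. Slco1c1, the T4 transporter gene, was at the same level, ranging from 72 to 111 CPM (median 89.8) in cortex and from 75.2 to 113 CPM (median 89.5) in striatum (0.04 ± 0.04, 95% interval -0.05 to 0.12, adjusted p = 0.476). The receptor genes Thra (-0.47 ± 0.03) and Thrb (-0.66 ± 0.05) were lower, as were the transporter genes Slc7a8 (-0.88 ± 0.04) and Slc16a10 (-0.92 ± 0.12). Crym, the cytosolic T3 binder, was higher, ranging from 43.9 to 95.4 CPM (median 62.8) in cortex and from 86.8 to 182 CPM (median 155) in striatum (1.21 ± 0.11). The direct targets Hr (-0.41 ± 0.06) and Klf9 (0.24 ± 0.06) went in opposite directions by small amounts. Thra overlaps Nr1d1 on the opposite strand, and since reads were unstranded, its count is uncertain where the genes overlap.

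Myelin genes were higher in striatum throughout. All 20 mature oligodendrocyte markers were called higher, all at least 2-fold and none overlapping between tissues, against 7.57% and 10.9% of all genes, with a median of 2.10. Their summed level ranged from 5743 to 8083 CPM in cortex and from 24076 to 33850.0 CPM in striatum. Fa2h, which makes hydroxylated myelin lipids, ranged from 49.3 to 77 CPM (median 59.3) in cortex and from 218 to 308 CPM (median 246) in striatum (2.10 ± 0.05), and Cnp ranged from 516 to 711 CPM (median 565) in cortex and from 1809 to 2510.1 CPM (median 2173) in striatum (1.90 ± 0.05). Klk6 had the largest difference (2.87 ± 0.14) and Myrf, the master regulator of myelination, the smallest (1.81 ± 0.05). Precursor genes differed less: of 15, 11 were called higher and 2 lower, with a median of 0.74. Pdgfra, the receptor that defines precursors, was at a like level, ranging from 73.9 to 115 CPM (median 98.6) in cortex and from 78.3 to 107 CPM (median 92.8) in striatum (-0.03 ± 0.04, not called), while Enpp6, of newly formed oligodendrocytes, was higher (1.85 ± 0.07).

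Other glial and vascular lists stayed closer to 0. Of 18 astrocyte markers 6 were called higher and 9 lower (median -0.10). Slc1a2, the main glutamate transporter, ranged from 4217 to 5403 CPM (median 5098) in cortex and from 2772 to 3664 CPM (median 3247) in striatum (-0.62 ± 0.04), and Gjb6, a connexin gene, ranged from 64.7 to 105 CPM (median 84.4) in cortex and from 32.3 to 70.6 CPM (median 49) in striatum (-0.78 ± 0.06). Aqp4 was not called (0.09 ± 0.06) and Gfap was higher (0.75 ± 0.07). Among 17 genes linked to astrocytes of a given region, Unc13c (1.83 ± 0.10) was the highest and Chrdl1, an astrocyte-secreted synaptic factor, the lowest, ranging from 22.9 to 34.1 CPM (median 30) in cortex and from 4.69 to 9.81 CPM (median 7.28) in striatum (-1.98 ± 0.09). Of 17 microglia markers 14 were called higher and 1 lower, but by a median of only 0.19, and every member overlapped between tissues. Sall1 had the largest difference (0.57 ± 0.05) and P2ry12 was at a like level (0.09 ± 0.05). Endothelial markers were 4 higher and 3 lower of 17 (median -0.07), with Pecam1 at the same level (0.01 ± 0.07). Of 19 mural and leptomeningeal markers 5 were called higher, led by Tagln (1.47 ± 0.09), and 7 lower, led by Cemip (-2.24 ± 0.08) and Slc22a6 (-2.05 ± 0.20). Of 7 blood and erythroid markers Bpgm was called higher (0.51 ± 0.04) and 1 member was called lower, while the globin genes were not called.

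**Figure D4:**
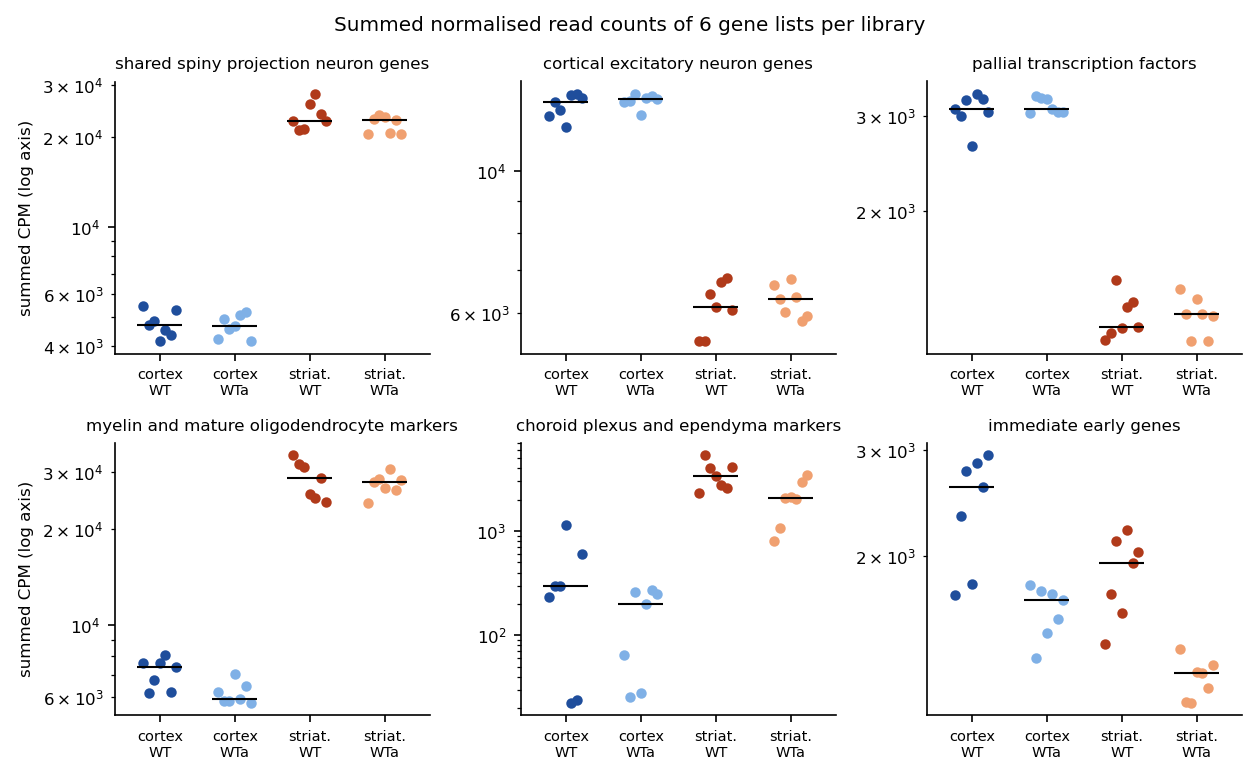
Summed CPM of 6 gene lists in each of the 28 control libraries, on a log axis, in the 4 groups of tissue and control line. Shared spiny neuron and myelin sums did not overlap between tissues. Choroid plexus sums ranged from 22.6 to 1151 CPM in cortex and from 799 to 5339.5 CPM in striatum.

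Choroid plexus and ependyma markers were all higher in striatum, with wide differences between libraries of the same group. All 16 were called higher, by a median of 3.07, and 5 had no overlap, against 36.4% and 10.9% of all genes. Their summed level ranged from 22.6 to 1151 CPM (median 297) in cortex WT, from 25.3 to 269 CPM (median 201) in cortex WTa, from 2300.2 to 5339.5 CPM (median 3356) in striatum WT and from 799 to 3489 CPM (median 2100.3) in striatum WTa. The highest cortex library, cortex WT 4, thus lay above the lowest striatum library. Ttr, the choroid plexus carrier of thyroid hormone and retinol, ranged from 6.11 to 1059 CPM (median 209) in cortex and from 693 to 5015 CPM (median 2414) in striatum (3.57 ± 0.58). Foxj1, of ciliated ependymal cells, ranged from 4.46 to 11.9 CPM (median 6.81) in cortex and from 17.7 to 36.5 CPM (median 26.2) in striatum (2.0 ± 0.07) and Ccdc153 ranged from 0.167 to 1.49 CPM (median 0.93) in cortex and from 4.05 to 8.47 CPM (median 5.01) in striatum (2.77 ± 0.16). These ependymal genes did not overlap between tissues. Of 18 markers of the neighbouring subventricular zone 11 were called higher and 3 lower (median 0.59): the cell cycle gene Top2a (2.48 ± 0.14) and the neuroblast gene Igfbpl1 (2.89 ± 0.22) were among the former, and Dcx (-0.62 ± 0.07) and Stmn1 (-1.36 ± 0.05), which also persist in cortex, among the latter.

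Markers of other neighbouring regions gave mixed results. Of 14 thalamic markers 8 were called higher and 4 lower. Of those higher, Six3, Zic1 and Gbx2 also belong to the subpallial or cholinergic lists, and Nexn ranged from 1.91 to 4.76 CPM (median 3.08) in cortex and from 55.8 to 81.6 CPM (median 65.1) in striatum (4.40 ± 0.09). Tcf7l2 ranged from 4.12 to 9.16 CPM (median 5.94) in cortex and from 10.6 to 21.1 CPM (median 14) in striatum (1.19 ± 0.10), while Slc17a6, the glutamate transporter of thalamic neurons, was lower, ranging from 22.3 to 34.6 CPM (median 29.9) in cortex and from 1.38 to 14.4 CPM (median 5.46) in striatum (-2.12 ± 0.24). Of 13 hippocampal markers 5 were called each way, with Prox1 higher (1.10 ± 0.06) and Lct lower (-3.69 ± 0.27). What part dissection had in the levels of ventricular, septal and thalamic genes was not tested.

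Immediate early genes, which neuronal activity switches on within minutes, were lower in striatum in 18 of 25 tests and higher in none, with a median of -0.52. Bdnf, the neurotrophin gene, ranged from 24.5 to 40.5 CPM (median 32.5) in cortex and from 1.46 to 8.03 CPM (median 3.47) in striatum (-2.98 ± 0.17), and Fos ranged from 16.9 to 73.7 CPM (median 37.5) in cortex and from 6.09 to 28.3 CPM (median 13.9) in striatum (-1.58 ± 0.15). Bdnf did not overlap between tissues and Fos did. Egr1 (-0.14 ± 0.11), Homer1 (0.05 ± 0.08) and Egr3 (-0.08 ± 0.10) were not called. The summed level of the list also differed between the control groups within a tissue, with medians of 2606 CPM in cortex WT and 1692 CPM in cortex WTa, and 1949.8 CPM in striatum WT and 1277 CPM in striatum WTa. Fos measured -1.50 in WT alone and -1.69 in WTa alone, so it was lower in striatum in both. How the mice were handled before dissection was not stated in the sources used here, and its part was not tested.

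A set of listed genes had 95% intervals that lay wholly within 0.2 log2 units of 0 and so were at like level in both tissues by these data. Beside Slco1c1, Aldh1a1, Cux1, Maoa, P2ry12, Pdgfra and Pecam1, these included the calcium-binding protein gene Calb1, which ranged from 131 to 181 CPM (median 161) in cortex and from 105 to 204 CPM (median 159.9) in striatum (0.01 ± 0.07), the inward rectifier gene Kcnj10 of astrocytes (0.01 ± 0.06), the glutamate receptor gene Grm3 (-0.00053 ± 0.09), the nicotinic subunit gene Chrnb2 (-0.07 ± 0.04) and Jund (0.02 ± 0.04). Calb1 marks both upper-layer cortical neurons and striatal matrix neurons, and its tissues overlapped throughout. The auxiliary AMPA receptor gene Cnih2 (0.09 ± 0.04) and the growth factor receptor gene Kit (0.08 ± 0.05) likewise overlapped and were not called.

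The regional difference was also fitted in each control group by itself. Of 15599 genes tested in WT alone 9372 (60.1%) were called, and of 15366 in WTa alone 9435 (61.4%). All 1981 genes with at least a 2-fold called difference that were tested in both groups went the same way in both, and 1977 were called in both. These genes were chosen on the same libraries in 1 joint fit, so their shared direction is a description and not a repeat. Their differences between WT and WTa had a median size of 0.18 log2 units, and 27 differed by more than 1. A test of the difference itself, the interaction of tissue and control group, called 15 genes (0.0932%), 6 with a higher and 9 with a lower difference in WTa, and 1026 (6.37%) had an unadjusted p under 0.05. With a replicate block the test called 14 each way, and DESeq2 called 13 with a higher and 20 with a lower difference. Libraries of the same number share it across tissues in their titles, but the labels do not say that they came from the same mouse. Zbtb16, a zinc finger factor gene, had the largest interaction (1.71 ± 0.17, adjusted p = 1.03e-06). In cortex it ranged from 22.7 to 36.1 CPM in WT and from 45.7 to 57.4 CPM in WTa, and in striatum from 2.80 to 5.84 CPM in WT and from 17.6 to 32.4 CPM in WTa. Zbtb16 was thus higher in WTa in both tissues, without overlap, and by more in striatum, so that its striatal deficit was -2.82 in WT and -1.11 in WTa. Slc22a3, an organic cation transporter gene, was higher in striatum by 2.50 in WT and 1.36 in WTa (interaction -1.15 ± 0.21, adjusted p = 0.0164), a call that ended with a replicate block (-1.13 ± 0.24, adjusted p = 0.0622). Mki67, a marker of dividing cells, differed likewise (2.63 and 1.75, adjusted p = 0.0305). The labels do not separate line from cohort in the control groups, and these cannot be told apart.

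**Figure D5:**
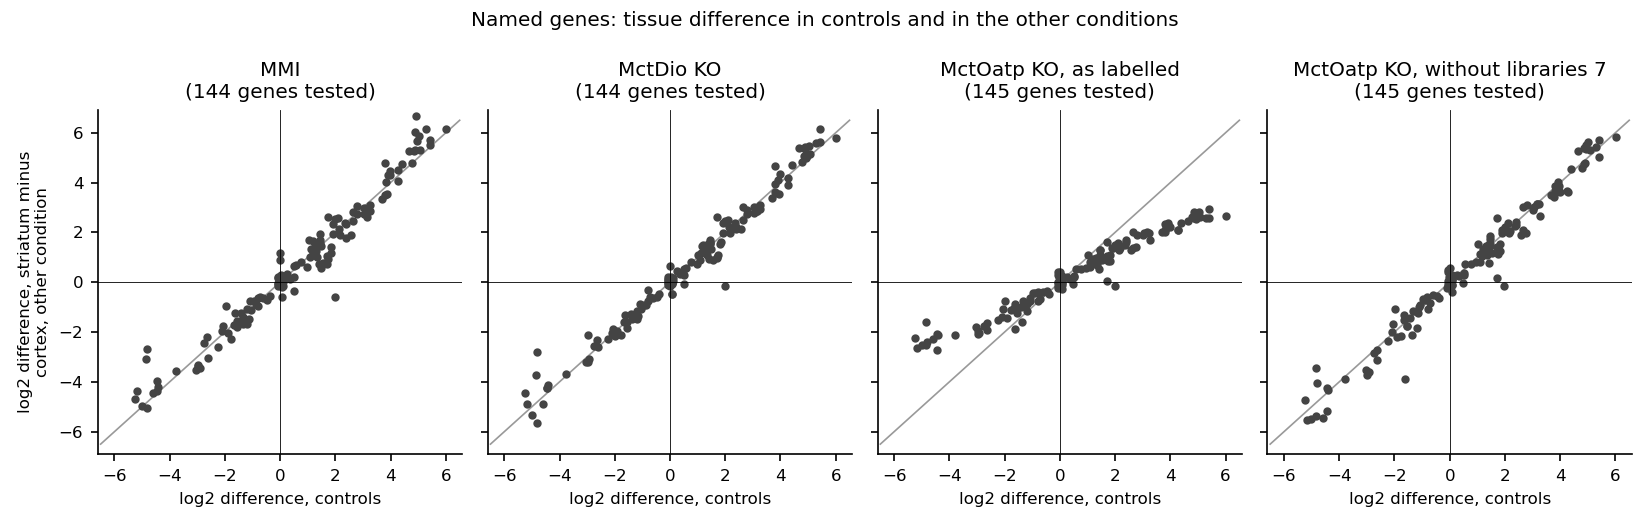
Log2 difference, striatum minus cortex, of the named genes in control libraries (horizontal axis) against that in MMI, MctDio KO, MctOatp KO as labelled and MctOatp KO without both libraries numbered 7 (vertical axes). Grey lines mark equal differences. Points of MctOatp KO as labelled lay closer to 0 than those without the libraries numbered 7.

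The same genes were then measured in mice that took no part in choosing them. Of the 399 genes at least 4-fold higher, 333 had enough reads to be tested in MMI. Of these, 331 went the same way, 329 were called and 260 were called at least 4-fold higher. Their median was 2.56 against 2.56 in controls. Of all genes tested in MMI, 32.7% were called higher and 63.1% either way. In MctDio KO 338 were tested, all went the same way and were called, and 288 were called at least 4-fold higher. Their median was 2.64 against 2.54, while 28.4% of all genes were called higher and 55.7% either way. Of the 286 genes at least 4-fold lower, 253 of 254 tested in MMI and 256 of 256 in MctDio KO went the same way. Of these, 252 and 256 were called, against 30.4% and 27.3% of all genes called lower, and 199 and 211 were called at least 4-fold lower. The direction was thus the same in nearly all of these genes that were tested in hypothyroid and MctDio KO mice, which share no libraries with the controls. Genes with few reads in both tissues of a condition were not tested there. A gene that lost its higher level could thus drop out, so these shares hold only for the genes tested. In MctOatp KO as labelled no gene of all those tested was called by edgeR's test, though 4976 (31.9%) had an unadjusted p under 0.05, and 337 of 338 higher genes went the same way with a median of 1.56 against 2.53. The libraries labelled cortex MctOatp KO 7 and striatum MctOatp KO 7 lay with the other tissue: Drd2 was at 117.3 CPM in the library labelled cortex MctOatp KO 7 against 1.53 to 8.06 CPM in the other 6, and at 1.69 CPM in the library labelled striatum MctOatp KO 7 against 133.7 to 149.4 CPM. Vip was at 2.50 CPM in the former against 51.6 to 140.1 CPM in the other 6 cortex libraries, and at 48.9 CPM in the latter against 1.02 to 3.99 CPM. Without those libraries, 5788 genes (37.1%) were called. Of 341 higher genes, 340 went the same way and 335 were called (17.9% of all genes called higher), with a median of 2.31 against 2.53. Of 253 lower genes, 253 went the same way and were called (19.2% of all genes called lower). The 6 cortex libraries left varied widely, with Slc17a7 from 731.5 to 1922 CPM and Penk from 36.2 to 334.8 CPM. In cortex MctOatp KO 1, 53.1% of counted entries fell in genes, the lowest of all 70 libraries. Its share of entries without a unique alignment, 39.7%, was the highest. What part this had in the MctOatp KO values was not tested.

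A few single genes are given by condition. Slc22a3 differed between the regions by 1.98 in controls but by -0.60 ± 0.24 in MMI, -0.14 ± 0.18 in MctDio KO and -0.13 ± 0.15 in MctOatp KO without the libraries numbered 7. These are values side by side, with no test of the difference between conditions. Drd1 measured 3.54 in MMI and 3.58 in MctDio KO against 3.85 in controls, and Drd2 measured 5.32 and 5.13 against 5.07. Slc17a7 measured -3.53 and -3.22 against -3.04. These 3 identity genes kept their sign in every condition.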

How the data were processed

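Libraries of cerebral cortex and striatum, made with a kit that does not mark strand from 500 ng RNA each, were read as single 75-base reads, per the labels' protocols. The authors deposited unnormalised read counts for each gene on the build GRCm38. The submitters' processing notes name CASAVA, FastQC, Bowtie, TopHat, HTSeq and edgeR, without versions or settings. Each file held 38293 gene lines and 5 closing lines that name no gene, which were left out. In control libraries 58.7% to 62.2% of the counted entries fell in genes. Symbols and positions came from GENCODE M21, which matched 36429 identifiers, and 1864 carried neither. Entries set aside as ambiguous made up 1.61% to 1.68% in control libraries. Genes that overlap on opposite strands may have lost unstranded reads in this way, and their counts are uncertain. Overlap was judged on whole gene spans, so exons need not overlap.

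The 28 control libraries were fitted with edgeR 4.0.16 (TMM, filterByExpr, robust quasi-likelihood F test) in R 4.3.3, with tissue and control group as terms, which kept 16096 genes. Standard errors are the size of the log2 difference divided by the square root of F. The biological coefficient of variation was 0.0887. To look for libraries deposited again, the 84 same-group pairs were compared over genes with at least 10 counts, and chi-square divided by its degrees of freedom was at least 2.21. Depth is given in the report, and precision was judged from the spread among libraries, of which counting error is only part. Other conditions and each control group were fitted separately. Alternatives were limma 3.58.1 voom, DESeq2 1.42.0, other scalings, no low-count filter, a test against a 2-fold minimum, a replicate block, and the leaving out of libraries. The test scripts were tested on simulated data.

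The members, the 41 lists and families and the rule for naming genes were chosen with earlier results of these data known. The rule took the 10 largest called differences each way with at least 5 CPM and no overlap, from each list the members of smallest p (up to 6 of 5 lists, otherwise 2), the 3 largest interactions each way, 10 genes in any case, and up to 1 member per list whose 95% interval lay within 0.2 of 0. Pde2a, Gpr52, Slc18a3, Ctgf and Lhfpl3 of the lists matched no gene line by symbol and were not used here. Some genes that the rule or the lists took enter the counts and medians but are not reported here by name, nor is the other gene lost in both double-knockout lines. Promoters came from the RefSeq table, matched by symbol for 11616 genes.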

Additional observations from a re-analysis of the deposited data

Results flagged for a closer look

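Among 580 groups of 7 libraries, a group being the values of 1 named gene in 1 group of tissue and control line, 38 had a library whose gap to the nearest other library was over 0.568 of the group's range. Chance flags about 1 in 20 such groups. Of these, 37 are given below, as values only.

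In striatum WT 3, Bdnf was highest at 8.03 CPM, against 1.46 to 3.58 CPM in the other 6, and Cux2 was highest at 48.6 CPM, against 28.7 to 36.9 CPM in the other 6. Gabra3 was highest at 45.5 CPM, against 27.6 to 33.9 CPM in the other 6, and Hkdc1 was highest at 2.08 CPM, against 0.894 to 1.39 CPM in the other 6, also in striatum WT 3. Prkar1b was highest at 298 CPM, against 251 to 271 CPM in the other 6, and Slc30a3 was highest at 9.59 CPM, against 3.70 to 5.70 CPM in the other 6, also in striatum WT 3. Trem2 was lowest at 13.9 CPM, against 17.1 to 18 CPM in the other 6, also in striatum WT 3. In cortex WT 1, Camk2a was lowest at 3528 CPM, against 4135 to 4428 CPM in the other 6, and Dlx6 was highest at 9.13 CPM, against 4.13 to 6.23 CPM in the other 6. Pdyn was highest at 45.5 CPM, against 36.1 to 39.8 CPM in the other 6, and Sema4d was lowest at 64.7 CPM, against 82.7 to 96.0 CPM in the other 6, also in cortex WT 1. Slc1a2 was lowest at 4217 CPM, against 4846 to 5236 CPM in the other 6, also in cortex WT 1. In striatum WTa 1, Gabra3 was highest at 52.2 CPM, against 37.9 to 42.8 CPM in the other 6, and Grm2 was highest at 7.82 CPM, against 2.02 to 3.69 CPM in the other 6. Htr1a was highest at 7.47 CPM, against 2.86 to 4.62 CPM in the other 6, and Tgm3 was highest at 0.695 CPM, against 0 to 0.288 CPM in the other 6, also in striatum WTa 1. Tmem215 was highest at 2.52 CPM, against 0.188 to 0.949 CPM in the other 6, also in striatum WTa 1. In cortex WT 4, Jund was highest at 110.2 CPM, against 89.8 to 97.5 CPM in the other 6. Rasgrf2 was lowest at 167 CPM, against 195 to 204 CPM in the other 6, and Slc17a7 was lowest at 1447 CPM, against 1887 to 2010.0 CPM in the other 6, also in cortex WT 4.

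Slc7a8 was lowest at 96.1 CPM, against 113 to 124 CPM in the other 6, also in cortex WT 4. In cortex WTa 7, Cemip was lowest at 39.8 CPM, against 46.7 to 50.6 CPM in the other 6, and Kcnk2 was lowest at 56.6 CPM, against 66.7 to 71.1 CPM in the other 6. Wdr66 was highest at 13.9 CPM, against 8.12 to 10.2 CPM in the other 6, also in cortex WTa 7. In striatum WTa 4, Ocln was highest at 10.8 CPM, against 7.55 to 8.37 CPM in the other 6, and Penk was highest at 1235 CPM, against 1080.4 to 1128 CPM in the other 6. Thra was highest at 601 CPM, against 543 to 567.9 CPM in the other 6, also in striatum WTa 4. In striatum WTa 3, Gjb6 was highest at 70.6 CPM, against 52.7 to 56.3 CPM in the other 6, and Polr3e was highest at 108 CPM, against 64.1 to 78.2 CPM in the other 6. In striatum WT 4, Gad1 was highest at 621 CPM, against 534 to 566 CPM in the other 6, and Neurod1 was highest at 1.16 CPM, against 0.224 to 0.417 CPM in the other 6. In cortex WT 7, Rgs8 was highest at 122 CPM, against 86.9 to 101 CPM in the other 6. In cortex WT 3, Neurod1 was lowest at 10.0 CPM, against 12.5 to 14.3 CPM in the other 6. In cortex WTa 6, Clec12a was highest at 0.51 CPM, against 0 to 0.209 CPM in the other 6. In cortex WTa 3, Rgs2 was lowest at 44.2 CPM, against 49.6 to 53.2 CPM in the other 6. In striatum WT 5, Foxp2 was highest at 89.7 CPM, against 77.1 to 82.2 CPM in the other 6. In striatum WT 7, Rgs2 was highest at 138 CPM, against 109 to 122 CPM in the other 6.

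Among the named genes, 6 had a tissue difference that itself differed between WTa and WT by the interaction test, given here as the log2 difference in WTa minus that in WT. Slc22a3 differed by -1.15 ± 0.21 SE (2.50 in WT and 1.36 in WTa, adjusted p = 0.0164), and with a replicate block its adjusted p was 0.0622. Wdr66 differed by -0.94 ± 0.16 SE (-0.74 in WT and -1.68 in WTa, adjusted p = 0.00632). Mki67 differed by -0.89 ± 0.18 SE (2.63 in WT and 1.75 in WTa, adjusted p = 0.0305). Polr3e differed by 0.63 ± 0.11 SE (0.20 in WT and 0.83 in WTa, adjusted p = 0.00632). Sfxn1 differed by 0.66 ± 0.10 SE (0.16 in WT and 0.83 in WTa, adjusted p = 0.000573). Zbtb16 differed by 1.71 ± 0.17 SE (-2.82 in WT and -1.11 in WTa, adjusted p = 1.03e-06).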

How the results depend on the processing

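Of 86 counts over all genes under the alternatives, 75 stayed within 1.5 times the reported count and 11 did not, and no called value of a named gene changed sign. Tested against a 2-fold minimum, 924 genes were called higher and 791 lower, against 5865 and 5550, since that test asks for more. Without the low-count filter, more genes were tested and 1901 were called at least 2-fold higher and 1818 lower, and 676 and 562 at least 4-fold. DESeq2 called 13 interactions higher and 20 lower in WTa, against 6 and 9, and the cause was not tested. Leaving out both libraries numbered 7 moved MctOatp KO from 0 to 5788 calls, and with a replicate block it stayed at 0. The titles carry the same numbers in both tissues, with the same gaps in WT. They do not state a pairing, so the main fit had no replicate block. Same-numbered deviations from the group means correlated from -0.006 to 0.383. As a hint of pairing from the data, 11 of 14 libraries correlated best with their own number, and whether they were paired was not tested. With a replicate block, 5997 genes were called higher and 5723 lower, and the interaction test called 14 higher and 14 lower. Of 328 list counts, 323 stayed within 1.5 times: microglia markers called lower went from 1 to 0 with upper-quartile scaling and with library totals, and under the replicate block endothelial markers lower went from 3 to 7, blood markers higher from 1 to 3 and immediate early genes higher from 0 to 1. Medians near 0 changed sign: that of opioid, tachykinin and cannabinoid genes from 0.01 to -0.06 with the block, that of blood markers from -0.02 to 0.01 with upper-quartile scaling and library totals, and that of all genes from 0.01 to -0.0036 without the filter. Other scalings moved the last to at most 0.04. Of 1595 values of named genes, 26 passed the threshold that had not, all at like levels, and 2 lost it, Sfxn1 and Trem2 in WT alone (0.16 and 0.18). Leaving out striatum WT 3, striatum WTa 1, cortex WT 1 and cortex WT 4, chosen after seeing the data, gave 5863 higher and 5493 lower, and leaving out the 4 cortex libraries highest for Drd2 gave 5748 and 5394. Depth limits genes near 1 CPM.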

Other observations

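Of the 590 genes with at least 4-fold differences and no overlap between tissues, 446 belong to no list and are not named above. The most abundant of these were looked up by their level, after the values were seen. Higher in striatum, Gsn, which encodes the actin-severing protein gelsolin, ranged from 131 to 191 CPM (median 151) in cortex and from 586 to 857 CPM (median 743) in striatum (2.27 ± 0.05). Pcp4l1, a relative of the calmodulin-binding Pcp4, ranged from 60.4 to 94.8 CPM (median 74.7) in cortex and from 408 to 539 CPM (median 479) in striatum (2.66 ± 0.06). Strn, which encodes the calmodulin-binding scaffold striatin, ranged from 92.9 to 118 CPM (median 107) in cortex and from 405 to 562 CPM (median 475) in striatum (2.16 ± 0.05). The tissues lay far apart for all 3. Tgfa, a ligand of the EGF receptor, ranged from 24 to 40.5 CPM (median 33) in cortex and from 174 to 252 CPM (median 199.7) in striatum (2.65 ± 0.05), and Ryr3, a calcium release channel, ranged from 30.8 to 50.6 CPM (median 40.4) in cortex and from 154 to 217 CPM (median 169) in striatum (2.11 ± 0.08). Asic4, of the acid-sensing channel family, had the largest difference among those looked up that were higher (3.29 ± 0.08), and the myelin gene Mbp was higher as well (2.0 ± 0.06).

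Lower in striatum, Nptxr, the neuronal pentraxin receptor, ranged from 1156 to 1375 CPM (median 1307) in cortex and from 149.99 to 228 CPM (median 172) in striatum (-2.83 ± 0.05). Its ligand genes Nptx1 and Nptx2, both on the lists above, were lower too (-1.97 ± 0.12 and -1.55 ± 0.06). Shank1, a scaffold of excitatory synapses, ranged from 409 to 736 CPM (median 645) in cortex and from 61.3 to 153 CPM (median 113) in striatum (-2.45 ± 0.11), and Vsnl1, a neuronal calcium sensor, ranged from 494 to 666 CPM (median 569) in cortex and from 88 to 199 CPM (median 128) in striatum (-2.19 ± 0.09). Nrn1, which encodes neuritin, had the largest difference of these (-3.69 ± 0.17). The long non-coding RNA Miat was lower too (-2.23 ± 0.12), ranging from 495 to 899 CPM (median 679) in cortex and from 108 to 236 CPM (median 135) in striatum.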
